A study of Homo sapiens with 18 samples.

Results

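The genes examined are the histone genes of the clustered loci, taken as every gene whose symbol starts with H1-, H2AC, H2BC, H3C or H4C. The array carries 67 such genes, and 48 of them were measured above background on at least 3 of the 18 arrays, out of 12547 genes that passed that filter. A further probe, named for both H3C11 and H3C6 and above background on 18 arrays, was not used because it carries more than 1 symbol, so H3C6 is not among the 67 and has no value here. The samples come from SKBR3, a breast carcinoma line of human origin that carries many copies of ERBB2, and from its derivative labelled SKBR3 resistant, in a study of acquired resistance to lapatinib, which blocks the kinases of EGFR and ERBB2. Each line was grown in basal conditions or with lapatinib at 0.1 µM or 1 µM, 3 arrays in each of the 6 groups, and no other agent or allele is named for any group. The labels do not tell how long the drug was given, how the resistant line was made, whether it is a single clone, or whether replicates were grown as separate cultures. Every p-value here therefore reflects the spread among these samples alone, and that spread may be technical.

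Histones package DNA. Pairs of H2A, H2B, H3 and H4 form the core of the nucleosome, and the linker histone H1 binds where DNA enters and leaves it. Most genes of the clusters are transcribed in S phase, when new chromatin needs histones, and their messengers end in a stem-loop in place of a poly(A) tail, although some of these genes also give polyadenylated transcripts, chiefly in cells that have left the cycle. Labelling of RNA for arrays of this kind generally starts from an oligo(dT) primer, which pairs with a poly(A) tail. Transcripts that end in a stem-loop may therefore be underrepresented in these signals. A change in the amount of a transcript and a change in its polyadenylated share cannot be told apart. Many of the genes are near copies of each other, so a probe named for one may also bind transcripts of its relatives, and single-gene signals are uncertain to that extent. H2AC18 has a twin in H2AC19, H4C14 in H4C15, and H3C14 in H3C15.

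By family, 5 of 9 linker genes were kept (H1-1, H1-2, H1-3, H1-7 and H1-10), as were 10 of 15 H2A genes, 14 of 18 H2B genes, all 11 H3 genes and 8 of 14 H4 genes. By place, all 8 genes of the chromosome 1q21 cluster and both genes at 1q42 were kept, 23 of 33 in the distal block of 6p22 and 13 of 20 in the proximal block. The symbol rule also takes 4 genes that lie outside the clusters, of which H1-10 on chromosome 3 and H1-7 on chromosome 12 were kept, and H1-8 and H4C16 were not. Of the kept genes 26 were above background on all 18 arrays. At the edge of the filter, H1-7, H2BC15, H4C6 and H3C2 were above background on 3 arrays, H2BC13 and H3C12 on 4, and H3C14 and H4C2 on 5. Just outside it, H2AC12 and H2AC14 were above background on 2 arrays and H2AC1, H4C1, H2AC7, H4C9 and H2AC15 on 1. The other 12 genes not kept, which besides H1-8 and H4C16 were H1-4, H1-5, H1-6, H2BC1, H2BC3, H2BC10, H2BC17, H4C4, H4C7 and H4C13, were not above background on any array.

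The mean probe signal was highest in the parental basal group, at 646 ± 25.9 (SD, n = 3), and lowest in the resistant 0.1 µM group, at 425 ± 8.16, and between 31 and 44 of the kept members were above background on an array. Between replicates of a group, r across genes (not independent points) was 0.986 to 0.996. Of 11 genes that mark a luminal, ERBB2-amplified line 10 were above background on every array and CDH1 on none. Of the markers of other cell types, 0 to 1 of 3 basal epithelial, 0 to 2 of 5 fibroblast, 1 to 4 of 5 leukocyte and 3 to 4 of 4 endothelial genes were above background on an array. The basal KRT14 and VIM, the fibroblast COL1A2, COL3A1 and LUM, and the leukocyte PTPRC were above it on none, and the endothelial PECAM1, CDH5 and VWF on all. A single array stood apart in the histone genes. On resistant 0.1 µM replicate 3 the signal was the lowest of its group for 35 of the 48 members, against 31.5% of all genes, and the calls and changes of the comparisons that use it are given with and without it.

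**Figure D1:**
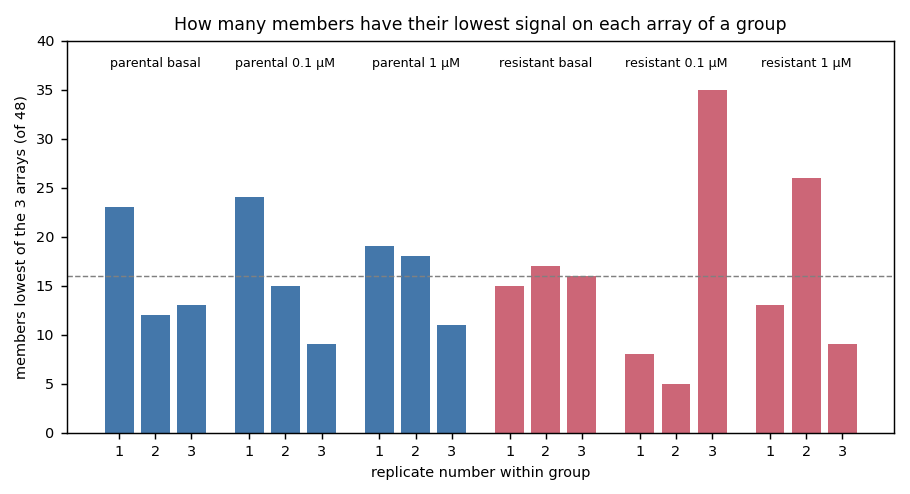
Number of the 48 kept histone genes (y axis) whose signal is the lowest of its group of 3 on each array (x axis, replicate number within group; blue, parental; red, resistant). The dashed line marks 16 genes, an equal share for each array; resistant 0.1 µM replicate 3 holds 35, and the other arrays hold between 5 and 26.

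In parental cells 1 µM lapatinib raised 9 of the 48 histone genes and lowered 5. The largest rise was that of the linker gene H1-2, which reached 2.60-fold, followed by H2AC25, H4C8 and H2AC18, while H2BC9, H3C3 and H3C8 fell. Of all genes tested 28% were called in this comparison, 14.3% higher and 13.6% lower, so the members' share of 29.2% lies near the background. Groups of 3 did not overlap in 13 higher and 10 lower members, and in 42.7% of all genes. By family, of 10 H2A genes 4 rose and none fell, of 14 H2B genes 3 rose and 2 fell, of 11 H3 genes none rose and 2 fell, of 8 H4 genes 1 rose, and of 5 linker genes 1 rose and 1 fell. With arrays scaled to their medians, which moves the median of all genes by -0.14, the same comparison calls 5 members higher and 11 lower. In bulk RNA, fewer cells of a type and less RNA per cell cannot be told apart.

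H1-2, one of the linker genes most widely used in somatic cells, had normalized log2 signals of 10.17, 9.84 and 10.10 on the parental basal arrays, 10.62, 10.85 and 11.19 at 0.1 µM, and 11.33, 11.49 and 11.41 at 1 µM. Each treated group lay wholly above the one with less drug. The change at 1 µM was 1.38 ± 0.14 (SE) on the log2 scale (limma, Benjamini-Hochberg adjusted p = 2.88e-08). H2AC25, an H2A gene of the small 1q42 cluster, read 9.78, 10.02 and 10.24 at basal and 11.150, 10.873 and 10.996 at 1 µM, again without overlap (0.99 ± 0.12, adjusted p = 2.01e-07). H4C8 read 8.73, 8.64 and 8.68 at basal and 9.83, 9.54 and 9.46 at 1 µM, a rise of 0.93 ± 0.14 (adjusted p = 8.93e-06) without overlap. It was the only one of the 8 kept H4 genes past the threshold here.

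H2AC18, of the 1q21 cluster, rose from 10.80, 11.03 and 10.84 to 11.64, 11.60 and 11.59 (0.72 ± 0.18, adjusted p = 0.00295), and a second probe for it gave 0.70. H2AC6, of the distal 6p22 block, rose from 8.98, 9.29 and 9.41 to 10.00, 9.79 and 9.85 (0.66 ± 0.11, adjusted p = 4.68e-05). In neither gene did the groups overlap. Smaller rises were called for H2BC12 (0.53 ± 0.11), H2BC5 (0.45 ± 0.12), H2AC8 (0.43 ± 0.13) and H2BC21 (0.39 ± 0.14), and second probes for H2BC12 and H2BC5 gave 0.42 and 0.44. The call of H2AC8, a dim gene, was lost without parental basal replicate 2 or parental 1 µM replicate 2 (adjusted p = 0.0638 and 0.0698), and that of H2BC21 without parental basal replicate 1 or parental 1 µM replicate 1 or 3 (0.169, 0.0854 and 0.123). Median scaling also ended the calls of H2AC18, H2BC12, H2BC5 and H2BC21 (adjusted p = 0.0659, 0.125, 0.704 and 0.271), with H2BC5 then at 0.08.

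**Figure D2:**
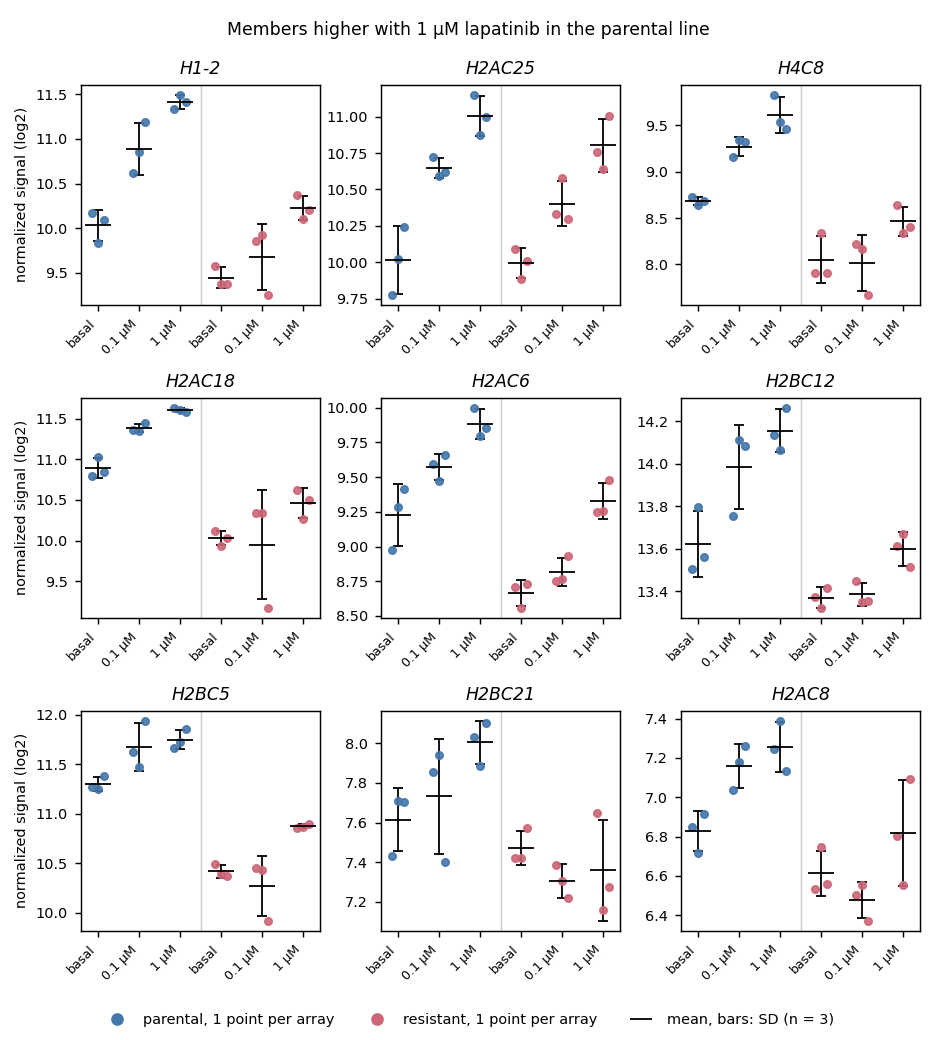
Normalized log2 signal (y axis) of the 9 histone genes called higher at 1 µM lapatinib in parental cells, by treatment (x axis; blue, parental; red, resistant). Each point is 1 array, the line is the group mean and the bars the SD (n = 3); in the H1-2 panel the parental groups step up from 9.84 to 11.49 without overlap, and the resistant arrays lie between 9.26 and 10.37.

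The falls were in 2 H3 genes, 2 H2B genes and H1-10. H3C3 read 7.39, 7.41 and 7.27 at basal and 6.86, 6.70 and 6.73 at 1 µM (-0.60 ± 0.14, adjusted p = 0.00164), and H3C8 read 7.94, 7.94 and 8.01 and then 7.25, 7.49 and 7.47 (-0.56 ± 0.12, adjusted p = 0.000833). Both are genes of the distal 6p22 block, and both were separated from basal on every array. H2BC9 went from 8.09, 8.08 and 8.12 to 7.19, 7.50 and 7.64 (-0.66 ± 0.16, adjusted p = 0.00214). H1-10, a linker gene outside the clusters whose messenger is polyadenylated, changed by -0.49 ± 0.14, and this call was lost without parental 1 µM replicate 2 (adjusted p = 0.0574). H2BC13 was above background on 4 arrays, the 3 parental basal arrays and 1 resistant array at 1 µM. It thus passed the filter only through the group where it was high, and its calls in parental cells rest on that selection. It changed by -0.45 ± 0.12 but was not above background on any parental array at 1 µM. Its fall is bounded only as at least 1.07-fold, the basal mean set against the background level. That is how every such bound is given here, and fold changes of dim genes are understated because 50 units were added to each signal before the log.

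Promoters are shown for the 4 rising genes with the largest changes that also rose in resistant cells and for the 2 H3 genes that fell in both lines, as 200 bases up to the transcription start, 5′ to 3′, from RefSeq (GRCh38.p14). They are reference sequences, not read from SKBR3. Capitals mark 4 motifs, each searched on both strands. The first 2 are named for their letters, TATAAA, which reads TTTATA when reversed, and CCAAT, which reads ATTGG when reversed. The others are the octamer ATTTGCAT, which reads ATGCAAAT when reversed, and GGTCCG, part of an H4 promoter element. GGTCCG overlaps the CCAAT motif in H2BC21, H2AC20 and H3C7. The stretches are chr6:26056471-26056670 on the minus strand for H1-2, chr1:228457874-228458073 on the minus strand for H2AC25, chr6:26123972-26124171 on the plus strand for H2AC6, chr6:26285535-26285734 on the minus strand for H4C8, chr6:26045184-26045383 on the plus strand for H3C3 and chr6:26271414-26271613 on the minus strand for H3C8.
H1-2: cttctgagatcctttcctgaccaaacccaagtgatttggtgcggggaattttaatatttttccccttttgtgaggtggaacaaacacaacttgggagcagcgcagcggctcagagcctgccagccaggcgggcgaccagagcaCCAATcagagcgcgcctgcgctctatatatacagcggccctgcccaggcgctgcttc
H2AC25: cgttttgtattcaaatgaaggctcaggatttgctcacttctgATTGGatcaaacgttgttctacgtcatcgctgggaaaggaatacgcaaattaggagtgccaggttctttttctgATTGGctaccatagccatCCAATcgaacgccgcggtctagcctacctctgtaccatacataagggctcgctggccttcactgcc
H2AC6: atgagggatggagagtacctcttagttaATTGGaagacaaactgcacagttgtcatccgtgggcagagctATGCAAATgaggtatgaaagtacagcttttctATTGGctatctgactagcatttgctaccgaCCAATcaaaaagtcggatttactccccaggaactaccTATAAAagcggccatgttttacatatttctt
H4C8: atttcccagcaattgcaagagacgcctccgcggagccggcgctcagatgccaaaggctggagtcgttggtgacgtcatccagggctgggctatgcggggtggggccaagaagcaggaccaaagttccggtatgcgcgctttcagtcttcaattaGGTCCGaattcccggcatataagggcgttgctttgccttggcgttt
H3C3: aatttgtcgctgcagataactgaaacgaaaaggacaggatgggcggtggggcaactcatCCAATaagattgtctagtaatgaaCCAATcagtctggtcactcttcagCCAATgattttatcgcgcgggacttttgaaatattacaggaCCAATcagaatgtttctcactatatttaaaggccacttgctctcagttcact
H3C8: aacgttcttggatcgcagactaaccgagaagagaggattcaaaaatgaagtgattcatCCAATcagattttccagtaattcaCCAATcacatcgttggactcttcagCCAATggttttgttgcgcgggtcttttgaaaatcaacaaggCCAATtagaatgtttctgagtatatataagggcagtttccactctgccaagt

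Promoters from 250 bases before to 50 after the start were matched for 45 of the 48 kept members. TATAAA was found in 66.7% of them and in 12% of all 27305 promoters of that length, CCAAT in 84.4% and 35.7%, ATTTGCAT in 40% and 1.8%, and GGTCCG in 24.4% and 11.2%. A hit counted anywhere in this window and on either strand, so TATAAA was not always near the start. The only TATAAA hit of H2BC4 is the reversed form at the far end, in bases shared with H2AC6. The motifs sorted by family. The octamer was in 7 of 10 H2A and 10 of 14 H2B promoters, in 1 of 9 H3 promoters and in none of the 5 linker and 7 H4 promoters, and GGTCCG was in all 7 H4 promoters. These promoters are not all separate sequences. H2BC21 and H2AC20, for example, start on opposite strands 236 bases apart, and their windows largely overlap. A motif in such shared bases is counted for both genes. The 2 H3 genes that fell in both lines have 4 forward CCAAT boxes each, which start 141, 117, 93 and 52 bases before the start in H3C3 and 142, 118, 93 and 52 in H3C8. No other of the 9 H3 promoters held 4 copies, which 1.06% of all promoters do and 11 of the members. The promoters of H3C3 and H3C8 had 200 identical bases in a global alignment with gaps, 66.7% of their length and the highest of the 36 H3 pairs, whose median was 55.2%. These matches describe letters only. A CCAAT box was also in all of the genes that rose in parental cells except H4C8. Counted on both strands, H2BC5, which rose in both lines, held 4 copies. H2BC12, which rose in parental cells, held 6, and H2BC13, which fell there, held 4.

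In resistant cells 1 µM lapatinib raised 6 histone genes and lowered 2, 16.7% of the members against 23.1% of all genes (11% higher, 12.1% lower). The groups did not overlap in 7 higher and 8 lower members, and in 38.1% of all genes. Median scaling gave 4 higher and 3 lower, and leaving out resistant 0.1 µM replicate 3 gave 7 higher and 5 lower, 25% of the members against 26.8% of all genes. H2AC25, H1-2 and H2AC6 rose, with smaller rises of H3C4, H2BC5 and H4C8, and H3C8 and H3C3 fell. H3C8 had the largest change of any member, from 8.35, 8.10 and 8.13 at basal to 7.66, 7.31 and 7.28 at 0.1 µM and 7.15, 7.13 and 7.30 at 1 µM. Both drug groups lay wholly below basal and overlapped each other, and the signal at 1 µM was 2.00-fold lower (-1.0 ± 0.12, adjusted p = 4.69e-07). H3C3 went from 7.49, 7.66 and 7.31 to 7.07, 6.59 and 7.11 (-0.56 ± 0.14, adjusted p = 0.00343), lower on every array.

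H2AC25 rose in resistant cells from 10.09, 9.88 and 10.01 to 10.758, 10.644 and 11.005 (0.81 ± 0.12, adjusted p = 7.25e-06), and H1-2 rose from 9.58, 9.38 and 9.38 to 10.37, 10.10 and 10.20 (0.78 ± 0.14, adjusted p = 0.000186). H2AC6 went from 8.71, 8.56 and 8.73 to 9.25, 9.26 and 9.48 (0.66 ± 0.11, adjusted p = 5.74e-05). In these genes every array at 1 µM lay above every basal array. H2BC5 moved from 10.50, 10.39 and 10.37 to 10.86, 10.87 and 10.90 (0.46 ± 0.12, adjusted p = 0.00583), again without overlap, while its second probe gave 0.28 (probe-level adjusted p = 0.136). H3C4 moved from 6.75, 6.90 and 7.0 to 7.34, 7.26 and 7.45 (0.47 ± 0.14, adjusted p = 0.0125). H4C8 had 7.90, 8.34 and 7.90 at basal and 8.64, 8.34 and 8.40 at 1 µM, so that the groups touched (0.41 ± 0.14, adjusted p = 0.031).

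The calls of H3C4 and H4C8 depended on single arrays. That of H3C4 was lost without resistant basal replicate 1 or resistant 1 µM replicate 3 (adjusted p = 0.0665 and 0.0579), and that of H4C8 without resistant basal replicate 1 or 3 or resistant 1 µM replicate 1 or 3 (0.133, 0.137, 0.159 and 0.0522). Median scaling ended the calls of H2BC5 and H4C8 (adjusted p = 0.0975 and 0.108). H2AC18, which rose in parental cells, changed by 0.44 ± 0.18 in resistant cells (adjusted p = 0.08), and by 0.56 by its second probe (probe-level adjusted p = 0.0221).

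**Figure D3:**
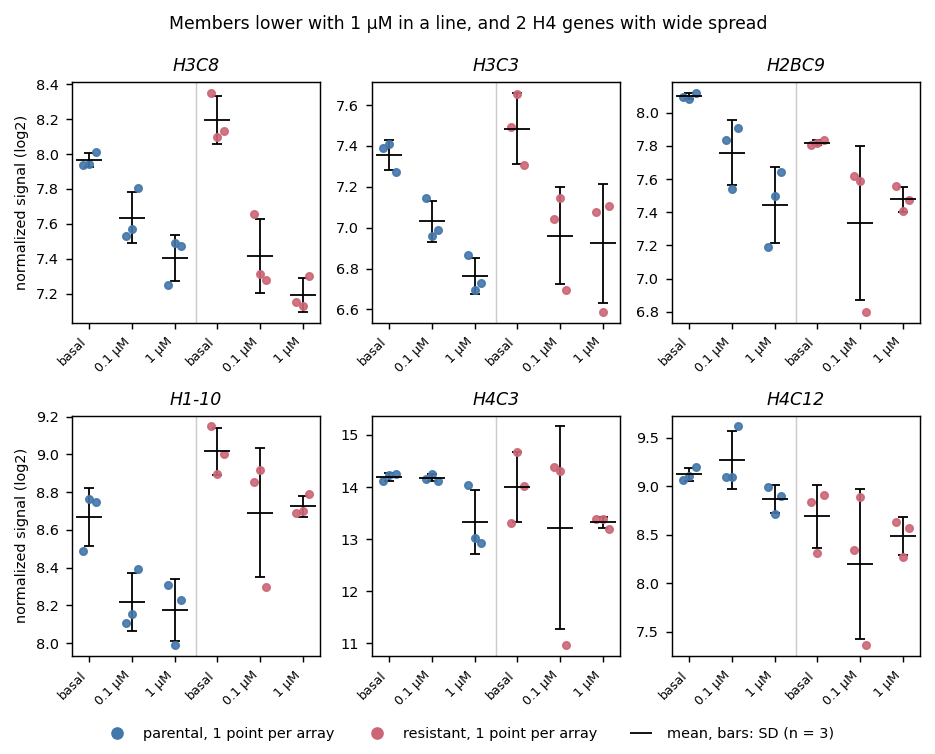
Normalized log2 signal (y axis) by treatment (x axis; blue, parental; red, resistant) of 4 histone genes called lower at 1 µM in a line and of 2 H4 genes with wide spread. Each point is 1 array, the line is the group mean and the bars the SD (n = 3); both lines step down in the H3C8 panel, and in the H4C3 panel resistant 0.1 µM replicate 3 lies at 10.97 while the other arrays of the series lie between 12.93 and 14.67.

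The lines share no arrays in these comparisons, so their calls at 1 µM can be set against each other. Of the members raised, 5 were raised in both lines (H1-2, H2AC25, H2AC6, H2BC5 and H4C8), which is 55.6% of the 9 in parental and 83.3% of the 6 in resistant cells, against 52.9% and 69.3% for all genes. The 2 members lowered in resistant cells, H3C3 and H3C8, are among the 5 lowered in parental cells, and over all genes 58.4% of the parental and 65.6% of the resistant falls were shared. Across the 48 members 35 changed in the same direction in both lines, with Pearson's r = 0.85 between the fitted changes, which is given as a description since the members share arrays and, in part, sequence. No member's response differed between the lines past the threshold at either dose, where 0.709% of all genes did at 1 µM (0.319% higher, 0.391% lower) and 0.00797% at 0.1 µM. At an unadjusted p under 0.05 the count was 7 of 48 at 1 µM (12.4% of all genes) and 8 of 48 at 0.1 µM (8.46%). H1-2 came nearest at 1 µM, with a response smaller by 0.60 ± 0.20 in resistant cells (a difference of -0.60, adjusted p = 0.190). Without resistant 0.1 µM replicate 3, an array of neither group compared that enters the shared estimate of spread, that difference passed (adjusted p = 0.0455). H4C8 came nearest at 0.1 µM (-0.62 ± 0.20, adjusted p = 0.331), and stood at -0.45 ± 0.18 without that array (adjusted p = 0.516). Without it the counts at an unadjusted p under 0.05 were 10 of 48 at 1 µM (15.2% of all genes) and 7 of 48 at 0.1 µM (7.95%).

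**Figure D4:**
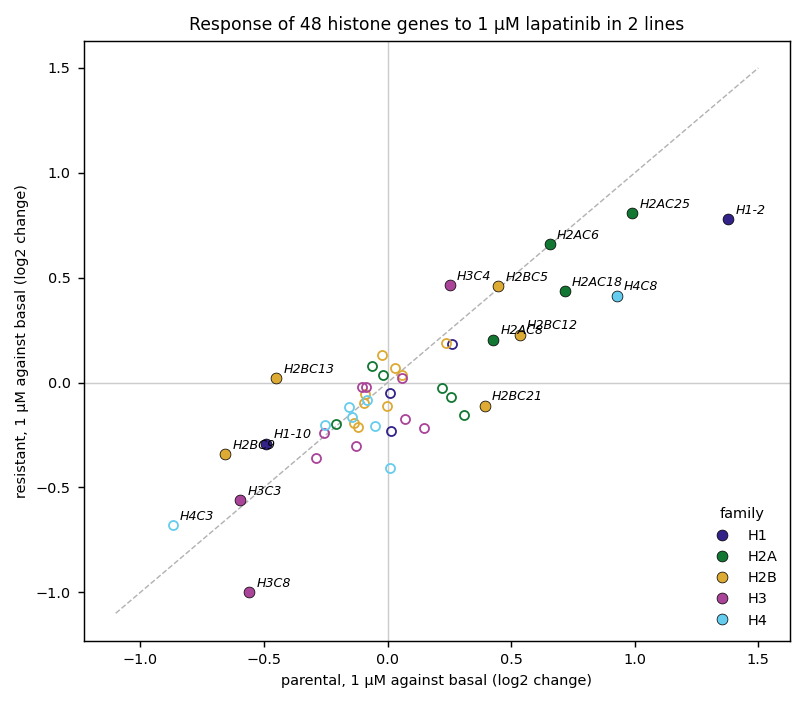
Fitted log2 change at 1 µM against basal in parental cells (x axis) and resistant cells (y axis) for the 48 kept histone genes, 1 point per gene, coloured by family; filled points passed the threshold in at least 1 line, and the dashed line marks equal changes. H1-2 lies at 1.38 and 0.78, H3C8 at -0.56 and -1.0, and H2AC25 at 0.99 and 0.81.

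Without drug, 6 histone genes were lower in the resistant line than in the parental line and none was higher, 12.5% of the members against 15.5% of all genes (8.26% lower, 7.25% higher). The lines did not overlap in 3 higher and 19 lower members, and in 33.7% of all genes. The 6 were H2BC5, H2AC18, H4C8, H1-2, H2AC6 and H4C14. H2BC5 had 11.27, 11.25 and 11.38 in parental and 10.50, 10.39 and 10.37 in resistant cells, 1.85-fold lower (-0.88 ± 0.12, adjusted p = 5.41e-06), and its second probe gave -0.68. H2AC18 had 10.80, 11.03 and 10.84 against 10.11, 9.94 and 10.03 (-0.87 ± 0.18, adjusted p = 0.00104), with -0.72 for its second probe. In both the lines were far apart beside the spread of the replicates. Groups did not overlap in the other 4 either, at -0.63 ± 0.14 for H4C8, -0.59 ± 0.14 for H1-2, -0.56 ± 0.11 for H2AC6 and -0.46 ± 0.11 for H4C14, whose arrays read 8.72, 8.93 and 9.01 in parental and 8.46, 8.43 and 8.41 in resistant cells. Leaving out any 1 array ended none of these 6 calls. Without resistant 0.1 µM replicate 3 the count was 1 higher and 9 lower, with H2AC20, H2BC12 and H4C12 added among the lower (adjusted p = 0.0263, 0.04996 and 0.0393) and H1-10 higher (0.35, adjusted p = 0.0258). With all arrays, the second probe of H2BC12 was also lower in resistant cells (-0.41, probe-level adjusted p = 0.0181), although the probe used was not called. Median scaling, which moves the median of all genes by -0.19, called 17 lower and none higher. Of the 48 members 37 had a negative difference, with a median of -0.14 against -0.00051 over all genes.

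The comparison of the untreated lines and that of parental 1 µM with basal both use the parental basal arrays, so their values are only set side by side. The difference between lines and the parental change were -0.88 and 0.45 for H2BC5, -0.87 and 0.72 for H2AC18, -0.63 and 0.93 for H4C8, -0.59 and 1.38 for H1-2, and -0.56 and 0.66 for H2AC6. H2AC25, which rose by 0.99, stood at -0.02 ± 0.12 between the untreated lines (adjusted p = 0.942). H4C14 changed by -0.08 with 1 µM in each line (adjusted p = 0.633 and 0.652).

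At 0.1 µM the lines differed in 17 members, 16 lower in resistant cells and H1-10 higher, 35.4% of the members against 20.2% of all genes (9.78% higher). The lines did not overlap in 1 higher and 18 lower members, and in 30.5% of all genes. The lower calls are 33.3% of the members and 10.4% of all genes, and the shares were 25% and 9.81% without resistant 0.1 µM replicate 3, with 12 members lower and 1 higher. H2AC18 read 11.37, 11.35 and 11.44 in parental cells and 10.34, 10.33 and 9.17 in resistant cells, and its difference of -1.44 ± 0.18 became -1.05 without that array. H2BC5 read 11.62, 11.47 and 11.94 against 10.45, 10.43 and 9.92 (-1.41 ± 0.12, and -1.23 without it), and H1-2 stood at -1.21 ± 0.14 (-1.0 without it). All resistant arrays lay below all parental arrays in these genes, with or without that array. H4C8 (-1.25 and -1.08 without the array), H2AC20 (-0.99 and -0.66), H4C12 (-1.07 and -0.66), H2AC6 (-0.76 and -0.82), H2AC8 (-0.68 and -0.63), H2BC12 (-0.60 and -0.58), H2BC4 (-0.52 and -0.47), H4C14 (-0.52 and -0.45) and H3C4 (-0.51 and -0.41) passed in both fits. H2AC8 and H2BC4 were above background on 2 of the 3 resistant arrays at this dose.

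The other 4 lower calls at 0.1 µM, H2BC6, H2BC21, H2BC8 and H2BC26, were lost without resistant 0.1 µM replicate 3 (adjusted p = 0.061, 0.0789, 0.0775 and 0.165). They were also lost without parental 0.1 µM replicate 2 (0.0589, 0.165, 0.167 and 0.0771), H2BC8 and H2BC21 without resistant 0.1 µM replicate 2 (0.229 and 0.0551), H2BC8 without parental 0.1 µM replicate 3 (0.104) and H2BC21 without parental 0.1 µM replicate 1 (0.121). H1-10, at 0.47 ± 0.14, stood at 0.67 without resistant 0.1 µM replicate 3, and lost its call without replicate 1 or 2 of either group at 0.1 µM (adjusted p = 0.0525 to 0.085) or with median scaling (0.0714). H2BC6 and H2BC26 were above background on 1 resistant array each at this dose. By family, 7 of 14 H2B, 4 of 10 H2A, 3 of 8 H4, 1 of 11 H3 and 1 of 5 linker genes were lower, and without resistant 0.1 µM replicate 3 the H2B count was 3 and the others were as before. The comparison of the lines at 0.1 µM and that of parental 1 µM with basal share no arrays, but they do share each gene's estimate of spread. Of the 9 members raised by 1 µM in parental cells 8 were lower in resistant cells at 0.1 µM, all but H2AC25, which makes 88.9% of those raised and 50% of the 16, against 17.3% and 24.0% for all genes. None of the 5 lowered members was among the 16, where over all genes 12.2% of the parental falls and 16.1% of the lower calls were shared. Without resistant 0.1 µM replicate 3, 8 of 10 raised members were among the 12 lower ones (80% and 66.7%, against 16.9% and 27.6% for all genes).

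At 1 µM 12 members were lower in resistant cells and H1-10 higher, 27.1% of the members against 21.3% of all genes (25% lower against 12%, and 2.08% higher against 9.32%). The lines did not overlap in 2 higher and 20 lower members, and in 38.9% of all genes. H1-2 had the widest difference, with 11.33, 11.49 and 11.41 in parental and 10.37, 10.10 and 10.20 in resistant cells (-1.19 ± 0.14, adjusted p = 5.28e-07). H4C8 and H2AC18 followed (both -1.15), then H2BC5 (-0.87), H2AC20 (-0.78), H2BC21 and H4C5 (both -0.65), H2BC12 (-0.56), H2AC6 (-0.55), H4C14 (-0.46), H2AC8 (-0.44) and H2BC4 (-0.40). H4C5 was called between the lines at this dose and not at the others, where its differences were -0.23 and -0.47 with adjusted p = 0.453 and 0.0744; without resistant 0.1 µM replicate 3 the latter was -0.12 (adjusted p = 0.63). H1-10 was higher in resistant cells by 0.55 ± 0.14 (adjusted p = 0.00399). The call of H2AC8 was lost without parental or resistant 1 µM replicate 2 (adjusted p = 0.0782 and 0.12), and that of H2BC4 without replicate 1 or 2 of either group at 1 µM (0.0622, 0.101, 0.0927 and 0.107). None of the 11 H3 genes was called between the lines at basal or at 1 µM. Without resistant 0.1 µM replicate 3, an array of neither group compared, 14 members were lower at 1 µM and 1 higher. The lower ones, 29.2% of the members against 13.8% of all genes, then included 1 H3 gene.

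**Figure D5:**
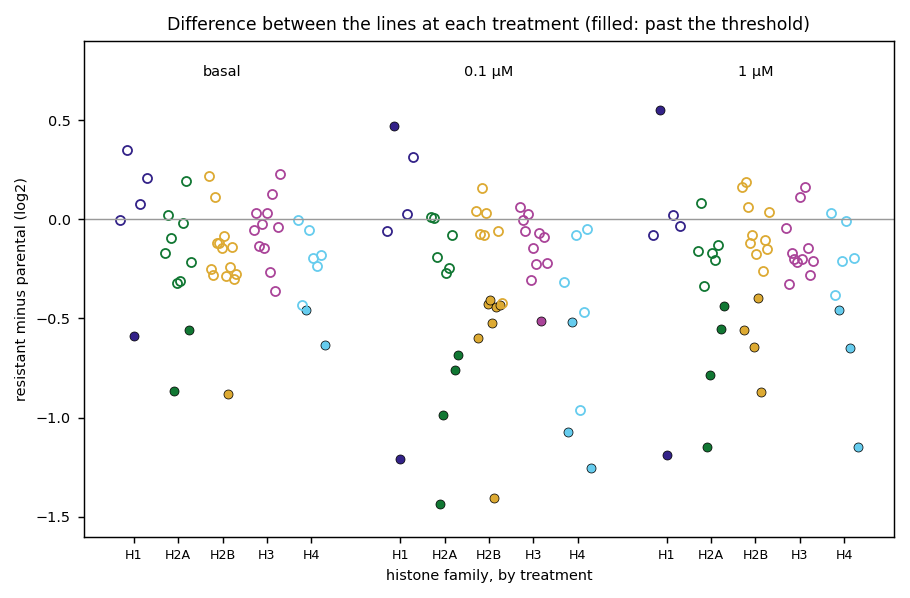
Fitted log2 difference, resistant minus parental (y axis), for the 48 kept histone genes by family and treatment (x axis), 1 point per gene; filled points passed the threshold, and the line at 0 marks equal signal. The lower calls number 6 at basal, 16 at 0.1 µM and 12 at 1 µM, and the 1 higher call at each drug dose is H1-10.

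The lower dose was measured against basal in each line. In parental cells 0.1 µM raised 6 members and lowered 2, 16.7% against 11.3% of all genes (5.94% higher, 5.35% lower), and the groups did not overlap in 10 higher and 9 lower members and in 30.5% of all genes. Median scaling, which moves the median of all genes by -0.17, gave 1 higher and 10 lower. H1-2 rose by 0.85 ± 0.14 (adjusted p = 0.000168), H2AC25 by 0.63 ± 0.12 (0.000453) and H4C8 by 0.59 ± 0.14 (0.00514), and these calls held whichever array was left out, although median scaling ended those of H2AC25 and H4C8 (adjusted p = 0.0853 and 0.0908). H2BC5 (0.38), H2BC12 (0.36) and H2AC6 (0.35) were called higher, with 0.04, 0.15 and 0.055 under median scaling (adjusted p = 0.856, 0.383 and 0.8). H1-10 (-0.45) and H2BC13 (at least 1.05-fold, not above background at 0.1 µM) were lower, the latter kept by the filter through its basal arrays. H2AC18 was not called by the probe used, but its second probe gave 0.71 (probe-level adjusted p = 0.00833). Second probes gave 0.37 for H2BC12 and 0.33 for H2BC5 (probe-level adjusted p = 0.0456 and 0.115). H2AC6 lost its call without parental basal replicate 1 or 2 or parental 0.1 µM replicate 1 or 3 (adjusted p = 0.0686 to 0.263), H2BC12 without parental basal replicate 1 or 3 or parental 0.1 µM replicate 2 or 3 (0.0931 to 0.133), H1-10 without parental basal replicate 2 or 3 or parental 0.1 µM replicate 1 or 2 (0.105 to 0.122), and H2BC13 without parental basal replicate 1 or parental 0.1 µM replicate 1 or 2 (0.0772 to 0.114). H2BC5 lost it without any 1 of the parental basal arrays, parental 0.1 µM replicate 1 or 3, parental 1 µM replicate 2 or any 1 of the resistant 1 µM arrays (0.0504 to 0.261). The count was 4 without parental basal replicate 1 or parental 0.1 µM replicate 1, and 5 without replicate 3 of either group. Between the doses H1-2 rose by a further 0.53 ± 0.14 (adjusted p = 0.0292), the 1 member called of 48 (2.08%) where 5.52% of all genes were (3.09% higher, 2.42% lower), and it lost that call without parental 0.1 µM replicate 1 or 2 or any 1 of the parental 1 µM arrays (0.053 to 0.174). The count of members between the doses was 0 without parental 0.1 µM replicate 1 or any 1 of the parental 1 µM arrays, and 3 without resistant 0.1 µM replicate 3.

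In resistant cells 0.1 µM raised H2AC25 (0.41 ± 0.12, adjusted p = 0.0314) and lowered H3C8 (-0.78 ± 0.12, adjusted p = 0.000154) and H3C3 (-0.53 ± 0.14, adjusted p = 0.0185), 6.25% of the members against 7.29% of all genes (4% higher, 3.29% lower). The groups did not overlap in 2 higher and 10 lower members, and in 20.1% of all genes. Median scaling called 8 lower and none higher. When resistant 0.1 µM replicate 3 was left out, 2 members were higher and 1 lower, 6.25% against 6.11% of all genes. H3C8 then stood at -0.71 (adjusted p = 0.000897), H2AC25 at 0.46 (0.0191) and H3C3 at -0.39. The call of H3C8 held whichever array was left out. That of H2AC25 was lost without resistant basal replicate 2 or 3 or resistant 0.1 µM replicate 2 (adjusted p = 0.128, 0.0769 and 0.128) or with median scaling (0.275), and that of H3C3 without resistant basal replicate 1 or 2 or resistant 0.1 µM replicate 3 (0.0547, 0.102 and 0.11). The count was 1 without resistant basal replicate 2, 5 without resistant 0.1 µM replicate 1 and 6 without replicate 2 of that group. H1-2 changed by 0.23 ± 0.14 (adjusted p = 0.401), and by 0.44 ± 0.13 (adjusted p = 0.0295) without resistant 0.1 µM replicate 3.

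Between 0.1 and 1 µM 5 members rose in resistant cells, 10.4% against 5.7% of all genes (2.08% higher, 3.62% lower). They were H2BC5 (0.61 ± 0.12, adjusted p = 0.00195), H1-2 (0.54 ± 0.14), H2AC6 (0.51 ± 0.11, adjusted p = 0.00477), H3C4 (0.45 ± 0.14) and H2AC25 (0.40 ± 0.12). The second probe of H2BC5 gave 0.29 (probe-level adjusted p = 0.236). By the probes used, H2BC5 and H2AC6 kept their calls whichever array was left out. H1-2 lost it without resistant 0.1 µM replicate 3 or resistant 1 µM replicate 1 or 3 (adjusted p = 0.126, 0.118 and 0.0633). H3C4 and H2AC25, at adjusted p = 0.0485 and 0.0413, lost theirs without any of 14 and 8 single arrays (0.0509 to 0.171 and 0.0504 to 0.224), many of them in groups outside the comparison, where only the shared spread moves, and with median scaling (0.0701 and 0.108). Without resistant 0.1 µM replicate 3 the changes were 0.43 for H2BC5, 0.33 for H1-2, 0.57 for H2AC6 and 0.35 for both H3C4 and H2AC25, and the count was 2 higher (H2BC5 and H2AC6) and 1 lower (H4C3), 6.25% against 6.09% of all genes. The count was 2 without resistant 1 µM replicate 1 or 3 and 3 without parental basal replicate 2, parental 0.1 µM replicate 2 or resistant basal replicate 3.

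On resistant 0.1 µM replicate 3 all 8 H4 genes lay below the mean of the other arrays of the group, by a median of 0.53 (log2 difference -0.53), along with 9 of 10 H2A, 12 of 14 H2B, 8 of 11 H3 and 4 of 5 linker genes. The median deviation of the 48 members was -0.20. H4C3 deviated by -3.37, a 10.4-fold lower signal and the largest deficit of all 12547 genes on that array, and H4C12 (-1.25), H2AC18 (-1.17) and H4C5 (-1.04) were the other members among the 109 genes that lay at least 1 log2 unit lower. H2AC20 deviated by -0.97 and H2BC9 by -0.80, while H2AC6 (0.17), H3C10 (0.17), H2BC18 (0.24) and H2BC14 (0.33) lay higher. Whether RNA quality, labelling or the cells themselves differed on that array was not tested.

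H4C3, singled out after its values were seen, had the widest spread between replicates of all 12547 genes, with a pooled within-group SD of 0.881, and 0.396 without that array. Its signal was 14.11, 14.23 and 14.25 on parental basal arrays, 14.16, 14.26 and 14.12 at 0.1 µM and 14.04, 13.02 and 12.93 at 1 µM. In resistant cells it was 13.31, 14.67 and 14.02 at basal, 14.38, 14.30 and 10.97 at 0.1 µM and 13.38, 13.38 and 13.20 at 1 µM. The parental basal and 0.1 µM groups were tight, and the spread came from 1 high array at parental 1 µM, from the resistant basal arrays and from the low array. With all arrays no change of H4C3 passed the threshold (parental 1 µM -0.87 ± 0.49, adjusted p = 0.206; resistant 1 µM -0.68 ± 0.49, adjusted p = 0.366). Without resistant 0.1 µM replicate 3 both passed (adjusted p = 0.0011 and 0.0115), as did the falls from 0.1 to 1 µM in parental cells (-0.85, adjusted p = 0.00618) and in resistant cells (-1.02, adjusted p = 0.00449). Over the 48 members the median within-group SD was 0.163 (0.149 over all genes), and 0.142 (0.14) without that array.

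Kept members form 8 pairs that start on opposite strands within 1000 bases of each other, and their members often did not move alike in parental cells at 1 µM. H2AC25 changed by 0.99 while H2BC26, which starts 230 bases away, changed by -0.12. H2AC6 changed by 0.66 and H2BC4, 246 bases away, by -0.0031, and H2AC8 by 0.43 and H2BC8, 233 bases away, by -0.02. In each of these the H2A gene alone passed the threshold. H2BC21 and H2AC20, 236 bases apart, changed by 0.39 and 0.31, the first of them called. H2BC13 (-0.45) was called and H2AC13 (-0.02), 244 bases away, was not, and likewise H2BC9 (-0.66) and H3C7 (0.07), 979 bases apart. In resistant cells H3C4 was called (0.47) and H2BC7, 223 bases away, was not (-0.06). H2BC11 and H2AC11, 248 bases apart, changed by -0.14 and -0.21 in parental and by -0.19 and -0.20 in resistant cells, with none called. Some partners lay near background, with parental basal and 1 µM means of 6.63 and 6.51 for H2BC26 and 6.47 and 6.45 for H2AC13. H2AC25 had means of 10.02 and 11.01. The added offset shrinks changes at such low signals, so a lack of movement there is uncertain. H2BC4, H2BC8 and H3C7 were above background on every parental array. Differences within pairs were not tested.

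The other kept members passed in no comparison, which with H4C3 makes 25 of the 48. They were the linker genes H1-1, H1-3 and H1-7, the H2A genes H2AC4, H2AC11, H2AC13, H2AC17 and H2AC21, the H2B genes H2BC7, H2BC11, H2BC14, H2BC15 and H2BC18, the H3 genes H3C1, H3C2, H3C7, H3C10, H3C11, H3C12, H3C13 and H3C14, and the H4 genes H4C2, H4C6 and H4C11. They include 8 of the 11 H3 genes, 5 of the 14 H2B genes and 5 of the 10 H2A genes.

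Genes of S phase, of histone messengers and of histone handling were counted beside the members. Of 24 measured S phase genes 23 were lower at 1 µM in each line and none was higher, where 13.6% of all genes were lower in parental and 12.1% in resistant cells, with a median of -0.80 in parental and -0.78 in resistant cells against 0.01 and -0.00087 over all genes. Ribonucleotide reductase RRM2 changed by -1.79 and -1.63, UHRF1, which maintains DNA methylation at replication, by -1.56 and -2.08, and the replication genes POLE2, CDC45 and GINS2 by -1.49, -1.43 and -1.38 in parental cells. At 0.1 µM 18 were lower in parental cells (5.35% of all genes) and 6 in resistant cells (3.29%). At that dose 11 of the 24 were higher in resistant than in parental cells (9.78% of all genes), where 16 histone genes were lower. The last 2 counts of S phase genes were 8 and 9 without resistant 0.1 µM replicate 3 (2.95% and 8.78% of all genes). Between the untreated lines 1 was higher and 1 lower. The part of the S phase genes in the histone changes was not tested.

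Of 27 measured genes of the transcription, 3′ end processing or turnover of histone messengers, 4 were higher and 7 lower at 1 µM in parental cells, and 1 and 7 in resistant cells. The shares over all genes were 14.3% higher and 13.6% lower in parental and 11% and 12.1% in resistant cells, and in each line most of these 27 genes were not called. CCNA2, cyclin A, changed by -1.27 and -1.25, and its kinase CDK2 by -0.91 and -0.99. HINFP, which activates H4 genes, changed by 1.08 in parental and 0.63 in resistant cells, and the cleavage factor CSTF2 by -0.77 and -0.66. Among 20 chaperones 1 was higher and 11 lower in parental cells and none and 8 in resistant cells, beside those same shares over all genes. The falls were led by HJURP, which places the centromeric histone (-1.22 in each line), the chaperone NASP (-0.76 and -0.66), the H3 and H4 chaperone ASF1B (-0.74 and -0.93) and the acetyltransferase HAT1 (-0.66 and -0.42).

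Of histone genes outside the symbol rule, mostly those of variants made through the whole cycle, 12 were measured, with none higher and 5 lower at 1 µM in parental cells and none and 4 in resistant cells, beside 13.6% and 12.1% of all genes lower. The centromeric CENPA changed by -1.09 in each line, the DNA damage variant H2AX by -0.76 and -0.63, H2AZ1 by -0.70 and -0.73, and H3-5 by -0.33 and -0.32. H2AZ2 was lower in parental cells (-0.32). Their median was -0.26 in parental and -0.11 in resistant cells, and that of the 48 members -0.01 and -0.08.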

How the data were processed

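RNA of 18 samples in 6 groups of 3 was labelled as biotin cRNA and hybridized to Illumina beadchips, per the labels' protocols. BeadStudio exported the signals, per the submitters' processing notes, which name no version here. The deposited tables hold 48803 probes, while the labels state 48697. One holds a linear intensity per probe that was not normalized by the authors, without detection p-values or control probes. The other holds an intensity that the authors quantile-normalized, as its values show.

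The first was processed in R 4.3.3 with limma 3.58.1 by normexp correction (offset 50), quantile normalization and log2. Each array's background level was the mode of its log2 signals plus a margin, from the spread below the mode, that 0.05 of background signals would pass. It replaced the detection p that the plan named. Probes over that level on 3 or more arrays were kept (22706, of which 16772 had 1 symbol), and the brightest stood for its gene (12547 genes). The platform annotation gives 1 symbol to 28098 probes, several to 13 and none to 20692, and 28059 symbols were updated by gene identifier from RefSeq (GRCh38.p14). One limma model with a mean for every group took in all 18 arrays (eBayes with trend). The 11 contrasts have two-sided p-values adjusted by Benjamini-Hochberg over the 12547 genes, with a threshold of 0.05.

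The members and lists were chosen with earlier results of these data known. Each kept member is named. Values on every array are given for up to 8 members with the largest changes past the threshold at 1 µM in a line or between untreated lines, and up to 5 genes are named per list. Alternative settings covered the authors' normalized table, the background correction, scaling to medians, filters, averaging a gene's probes, the trend, a replicate block, fits to the compared groups and each array left out.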

Additional observations from a re-analysis of the deposited data

How the results depend on the processing

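Of 75 calls of single members over all comparisons, all kept their direction under every alternative, 46 kept the call in all of them and 29 lost it in at least 1. The authors' normalized values and no background correction ended none, a stricter filter (above background on at least 6 arrays) none of the 73 it still tested, median scaling 15, fits on the compared groups alone 9, no filter 4, no intensity trend 3 and the mean of a gene's probes 1. The replicate block ended 3, those of H2BC5 in parental cells at 0.1 µM (adjusted p = 0.0549), H2AC25 in resistant cells between the doses (0.05004) and H2BC8 between the lines at 0.1 µM (0.0512), and gave 14 members in parental and 8 in resistant cells at 1 µM and 6 between the untreated lines. Over 45 pairs of arrays with the same replicate number the median correlation of deviations was -0.011, and 3 exceeded 0.1. For 90 pairs of other numbers the median was 0.0053, and 8 exceeded 0.1. Of 18 arrays 5 correlated best with an array of their own number. These values cannot tell whether arrays of the same number were grown or handled together.

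Besides leaving out 1 array, which did so in several comparisons, 3 settings moved counts by over 1.5 times. The cause was not tested. With median scaling 8 members were called in resistant cells at 0.1 µM (3 in the reported fit), 3 between the doses there (5) and 17 between the untreated lines (6). Without a filter 3 were called between the doses in resistant cells. With the compared groups alone the counts were 4 between the doses in parental cells (1), 1 in resistant cells at 0.1 µM, 14 at 1 µM (8), 2 between the doses there, 10 between the untreated lines and 1 for the response difference at 1 µM (0). Leaving out 1 array gave 4 to 9 members in parental cells at 0.1 µM, 12 to 16 at 1 µM and 0 to 3 between the doses, 1 to 6, 6 to 12 and 2 to 6 in resistant cells, 6 to 10, 13 to 18 and 11 to 15 between the lines at basal, 0.1 and 1 µM, and 0 and 0 to 1 for the response differences at 0.1 and 1 µM. Precision is limited by 3 arrays per group and, for members near background, by the added offset.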
